A study of Zea mays with 10 samples.

Results

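In maize endosperm, 42 of 28580 gene IDs were expressed in every wild-type library and reduced to a small remnant in every library of the opaque-2 mutant. They were chosen from the measured levels: the lowest of 3 wild-type values was 2 RPKM or more, the highest of 3 mutant values was under 0.25 of that lowest value, and the wild-type mean was under 1000 RPKM. RPKM is a read number scaled to gene length and library size. Of 10430 IDs within the minimum and the cap, 50 met the ratio too, and 8 of them were left out by name: o2 itself, 2 other bZIP factor genes (GBF1 and bZip112), the lysine degradation gene lkrsdh1, the ribosome-inactivating protein gene rip1 (also named b-32) and 3 alpha zein genes. A further 39 IDs passed the minimum and the ratio but lay over the cap, 21 of them with a zein name. Since the levels in both genotypes chose the 42 genes, their fall in the mutant is a description here and carries no test.

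O2, a bZIP factor made in the starchy endosperm, binds ACGT-containing boxes in promoters of storage protein genes. Zeins, the alcohol-soluble storage proteins of maize, contain almost no lysine, and kernels without O2 are soft, opaque and richer in lysine. Besides zeins, O2 is known to activate genes for a ribosome-inactivating protein, for lysine degradation and for carbon and nitrogen metabolism.

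The material was endosperm dissected from kernels 15 days after self-pollination of greenhouse plants, from the inbred B73 (WT) and from B73o2 (o2), the opaque-2 mutant in that background. The sources used here do not name the mutant allele. Polyadenylated RNA was sequenced in 3 libraries per genotype, and whether the replicates came from separate plants or ears is not stated, so spreads may be technical. In bulk tissue, fewer cells of a type and less RNA per cell cannot be told apart.

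The RNA libraries held 52906484 to 66795114 reads, of which 26.9% to 38.6% mapped to several places in WT and 20.8% to 21.7% in o2. Median RPKM lay between 1.56 and 1.60 in all 6 libraries, whereas summed RPKM ran from 696998 to 2588142 in WT and from 207265 to 264780 in o2. Folds and percents below are thus relative to a typical gene and not to a share of the summed RPKM. In order of replicate number, here and throughout, the o2 gene had 112, 86.1 and 163 RPKM in WT against 0.212, 0.173 and 0.254 in o2. Named zeins made up 26.4% to 32.7% of the summed RPKM in WT. Of the markers of other kernel tissues, 8 basal transfer layer genes summed to 187, 78.1 and 4.28 RPKM in WT and 54.3, 173 and 24.6 in o2, and 4 aleurone genes to 11.2 to 13.2 and 9.53 to 11.6 RPKM. The 2 embryo genes, the oleosin gene ole1 and the globulin gene glb1, summed to 32.04, 104 and 57.5 RPKM in WT and 19.5, 16.2 and 3.21 in o2. All WT sums lay above all o2 sums, but glb1 alone overlapped, with 3.80, 17.6 and 14.5 RPKM in WT and 5.86, 6.04 and 1.32 in o2. Neither gene was called in the limma fit described below (adjusted p = 0.108 for ole1 and 0.379 for glb1). The part of embryo RNA in the results below was not tested.

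The WT means of the 42 genes ran from 2.33 to 752 RPKM with a median of 6.58. Their o2 means were 0% to 17.7% of the WT means, with a median of 3.94%. In 11 genes the remnant was under 1% of WT, in 22 under 5% and in 37 under 10%. By WT level, the 6 genes of 100 RPKM or more kept a median of 0.424%, the 11 genes of 10 to 100 RPKM kept 3.41%, and the 25 genes under 10 RPKM kept 5.98%. The median log2 fold change was -4.14, beside 0.05 over all 18687 tested genes. In limma on log2(RPKM + 0.1), 3.56% of all tested genes were called at an adjusted p under 0.05 (2.07% lower and 1.49% higher), and all 42 of these genes were called lower. All 3 o2 values lay below all 3 WT values in all 42 genes, as the rule requires, and in 11.7% of all tested genes. The rule used this contrast, so nothing is read from these counts. Together the 42 genes summed to 2544, 2054 and 3699 RPKM in WT and 28.6, 36.3 and 99.0 RPKM in o2.

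**Figure D1:**
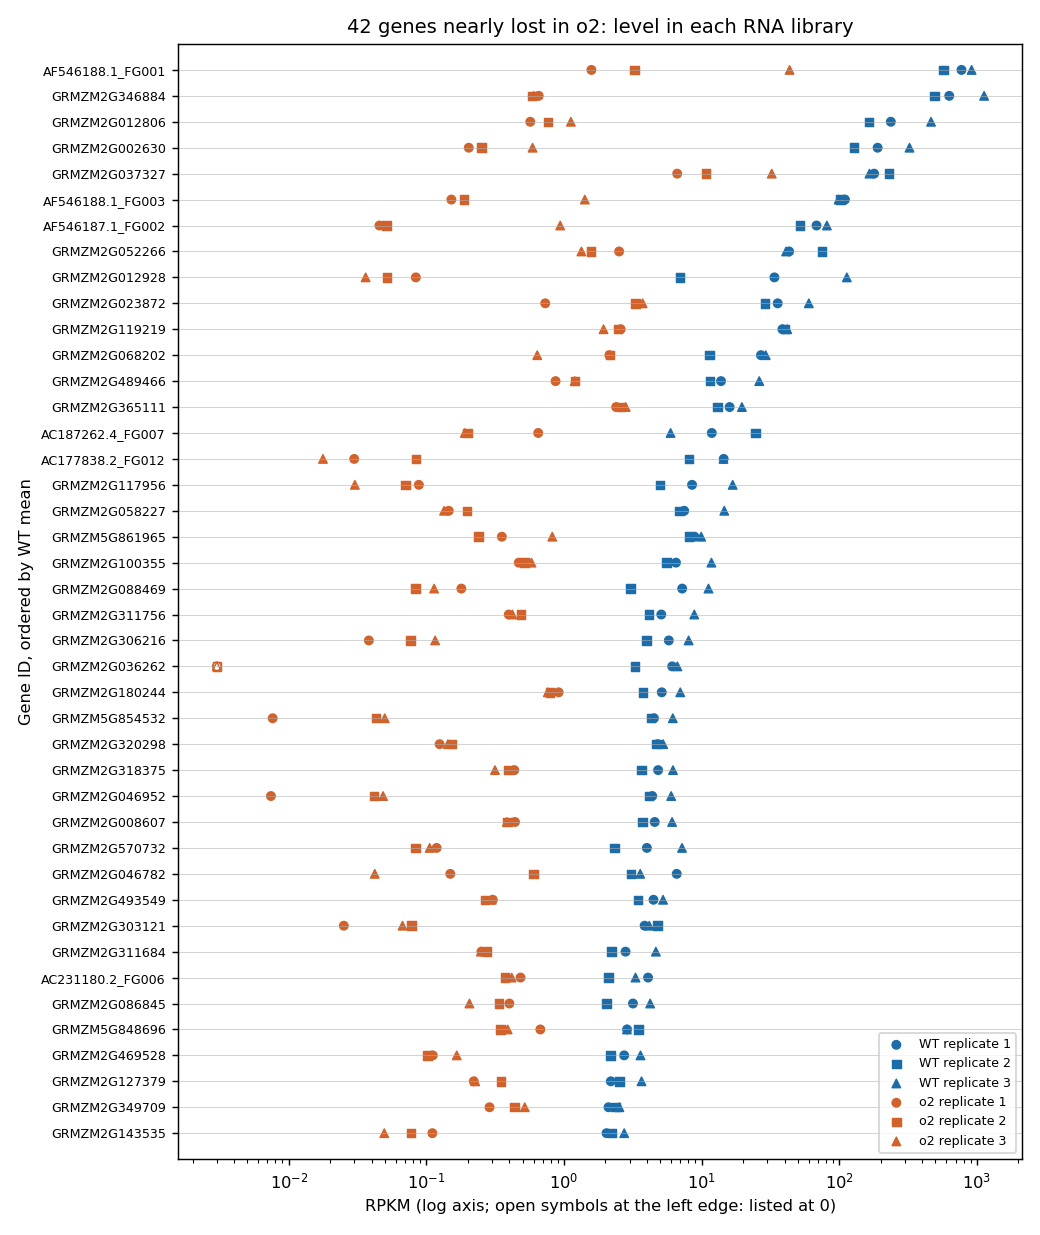
RPKM of the 42 genes (rows, ordered by WT mean) in each of the 6 RNA libraries, on a log axis, with WT in blue, o2 in orange and a symbol per replicate. Every gene has its 3 o2 values to the left of its 3 WT values, as the rule requires, and the gap is widest for several of the most abundant genes; GRMZM2G036262 is listed at 0 in all o2 libraries and drawn at the left edge.

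**Figure D2:**
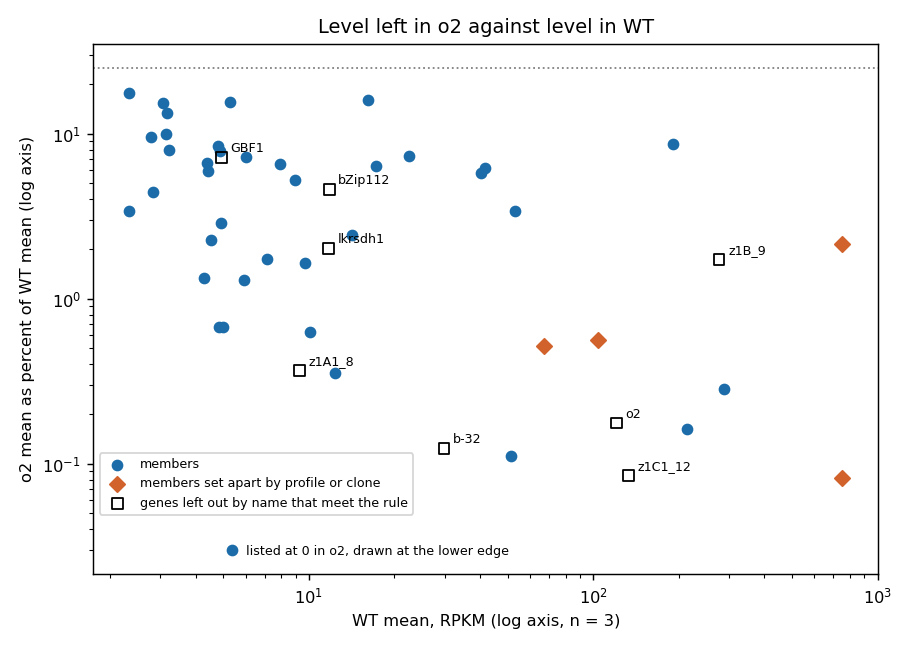
The o2 mean as a percent of the WT mean against the WT mean in RPKM, both on log axes, for the 42 genes (filled symbols; diamonds are 4 IDs set apart below for a profile parallel to a zein or for their clone) and for the 8 genes left out by name (open squares). The dotted line marks 25%; o2 itself lies at 0.177% and the members spread from 0% to 17.7%.

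Few of these genes had a name. The reference gene table paired 21 of the 42 IDs with 1 gene each and 21 with none, and only 3 had a name beyond a locus number. The first, scl1 (GRMZM2G023872), had 35.7, 28.7 and 60.1 RPKM in WT and 0.730, 3.31 and 3.72 RPKM in o2. Its o2 mean was 6.24% of the WT mean, and its o2 replicate 1 lay well below the other two. The second, the fructokinase gene frk1 (GRMZM2G086845), encodes an enzyme that phosphorylates the fructose released from sucrose, and had 3.17, 2.04 and 4.22 RPKM in WT and 0.401, 0.335 and 0.205 RPKM in o2. Its remnant was 9.98% of WT, among the larger ones, and its lowest WT value was close to the minimum of 2 RPKM. The third, FIP1 (GRMZM2G046782), had 6.59, 3.08 and 3.57 RPKM in WT and 0.149, 0.600 and 0.0421 RPKM in o2, a remnant of 5.98%. The o2 values of FIP1 differed more among themselves than those of frk1.

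Among the 7 most abundant IDs, 1 ran parallel to a named zein gene and 3 shared a clone with models far over the cap, so that the lack of a zein name alone does not set these IDs apart from zeins. GRMZM2G346884 had 629, 492 and 1127 RPKM in WT and 0.655, 0.586 and 0.602 RPKM in o2, a 1221-fold difference between the means. In all 6 libraries it stood at 5.997% to 6.60% of z1C1_4 (GRMZM2G044625), a gene of the 22-kDa alpha zein family, so its level followed that zein across both genotypes. Whether its reads came from zein transcripts was not tested.

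The other 3 are gene models on a pair of sequenced clones. AF546188.1_FG001 had 772, 570.5 and 914 RPKM in WT and 1.58, 3.25 and 43.5 RPKM in o2. It stood at 31.7% to 50.1% of AF546188.1_FG002, a model of the same clone whose WT mean was 1976 RPKM. Other models of that clone, AF546188.1_FG005 and AF546188.1_FG007, had WT means of 74086 and 70260 RPKM and ran parallel to a named zein, with a range of the log2 ratio over the 6 libraries of 0.21 each. AF546188.1_FG001 itself did not run parallel to a zein, its smallest such range being 1.27.

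AF546188.1_FG003 had 109.9, 102 and 98.9 RPKM in WT and 0.152, 0.187 and 1.42 RPKM in o2. AF546187.1_FG002 had 68.3, 51.9 and 81.3 RPKM in WT and 0.0456, 0.0513 and 0.937 RPKM in o2. The gene of most similar profile to AF546187.1_FG002 was bz15, the 15-kDa beta zein gene, of whose RPKM it had 0.598% to 1.43%. Its range to that zein was 0.97 and that of AF546188.1_FG003 was 1.43, so neither was parallel to it, and GRMZM2G002630 and GRMZM2G012806, at 1.36 and 1.40 from their nearest zein, lay closer than AF546188.1_FG003. The gene bz15 was still the second nearest of all tested genes to AF546188.1_FG003. These 3 models were thus set apart for their clone and not for a parallel profile, and whether they hold zein reads was not tested. In these 3 models o2 replicate 3 lay far above the other o2 libraries, while the WT values stayed within a factor of 1.60 of each other.

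One pair of IDs had the same profile. GRMZM2G046952 had 4.37, 4.16 and 6.003 RPKM in WT and 0.00742, 0.0418 and 0.0484 RPKM in o2. In each of the 6 libraries its level was 97.2% or 97.3% of that of GRMZM5G854532. Gene models that hold the same reads have RPKM in a constant ratio, so the pair is counted as 1 gene where stated; whether they share reads was not tested. Without 1 of this pair and GRMZM2G346884, a choice made after the values were seen, 40 genes remained, with a median remnant of 4.86% of WT and a median log2 fold change of -4.09. Without the 3 clone models as well, 37 remained, with a median remnant of 5.78% and a median log2 fold change of -3.87. These 37 summed to 960.0, 833 and 1471 RPKM in WT and 26.1, 32.2 and 52.5 RPKM in o2, so most of the WT sum of the 42 lay in the 5 IDs set apart. Of these 37, only 3 had a WT mean of 100 RPKM or more.

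Those 3 were GRMZM2G012806, GRMZM2G002630 and GRMZM2G037327. GRMZM2G012806 had 237, 164 and 464 RPKM in WT and 0.568, 0.762 and 1.12 RPKM in o2, so that 0.284% of the WT mean remained. GRMZM2G002630 had 189.8, 128 and 324 RPKM in WT and 0.203, 0.251 and 0.590 RPKM in o2, a remnant of 0.163%. Both were highest in WT replicate 3 and lowest in WT replicate 2, and both were expressed in WT at a level above that of the o2 gene. GRMZM2G037327 had 179, 229 and 166 RPKM in WT and 6.64, 10.8 and 32.3 RPKM in o2. It kept 8.66% of WT, by far the largest remnant among these 3, and its order of WT libraries was the opposite, with replicate 2 highest.

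Among genes of intermediate level, GRMZM2G012928 had the deepest loss and the widest WT spread. It had 33.8, 6.94 and 113 RPKM in WT and 0.0838, 0.0515 and 0.0362 RPKM in o2. The o2 mean was 0.111% of the WT mean, although the highest WT value was 16.3 times the lowest. GRMZM2G119219 had the narrowest WT spread of this class, with 38.6, 40.5 and 41.9 RPKM in WT and 2.58, 2.47 and 1.94 RPKM in o2. Its WT values differed by a factor of 1.08 and its o2 mean was 5.78% of WT. GRMZM2G052266 had 43.2, 74.7 and 41.1 RPKM in WT and 2.51, 1.57 and 1.34 RPKM in o2. It was again highest in WT replicate 2, and 3.41% of its WT mean remained. GRMZM2G068202 had 27.0, 11.4 and 29.2 RPKM in WT and 2.14, 2.16 and 0.639 RPKM in o2, a remnant of 7.31%. Its o2 replicate 3 was the lowest of the 3, unlike in the clone models.

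Some genes of lower level were lost as completely as the abundant ones. GRMZM2G036262 had 6.11, 3.29 and 6.66 RPKM in WT and was listed at 0 in all 3 o2 libraries. It was the only one of the 42 without any o2 signal, and no fold is given for it. AC177838.2_FG012 had 14.4, 8.10 and 14.4 RPKM in WT and 0.0299, 0.0841 and 0.0177 RPKM in o2, a remnant of 0.356%. GRMZM2G117956 had 8.51, 4.96 and 16.8 RPKM in WT and 0.0881, 0.0706 and 0.0302 RPKM in o2, a remnant of 0.624%. Both belonged to the class of 10 to 100 RPKM, with WT means of 12.3 and 10.1 RPKM. In both, the o2 values were all under 0.1 RPKM and the highest WT values were above 10 RPKM.

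At the ratio limit the genes merged with their surroundings. Just inside lay GRMZM2G349709, with a highest o2 value of 0.246 of its lowest WT value, GRMZM2G180244 at 0.243, GRMZM5G848696 at 0.235 and AC231180.2_FG006 at 0.229. Just outside lay GRMZM2G065617 at 0.254, GRMZM2G108076 at 0.262, GRMZM2G365292 at 0.265 and GRMZM2G126900 at 0.284. At the minimum, GRMZM2G143535 had a lowest WT value of 2.04 RPKM and so did frk1.

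The order of the WT libraries, which the rule did not use, was shared by most of these genes. In 33 of 42 (78.6%) WT replicate 3 was the highest WT library, against 37.7% of all tested genes and 100% of the 24 named zeins called lower. The full order of replicate 3 over 1 over 2 held in 29 (69.0%), against 28.2% of all tested genes and 95.8% of those zeins. The o2 gene had the same order. The median ratio of WT replicate 3 to WT replicate 2 was 1.65 in the 42 genes, 0.996 over all tested genes and 3.62 in the zeins, and it was 1.90 for o2. Without the 5 IDs set apart the shares were 78.4% and 67.6%. WT replicate 3 also had the largest summed RPKM, the largest share of multiply mapped reads and the lowest sum of basal transfer layer markers, and the part of these in the pattern was not tested. All counts come from the same 3 libraries and are a description.

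**Figure D3:**
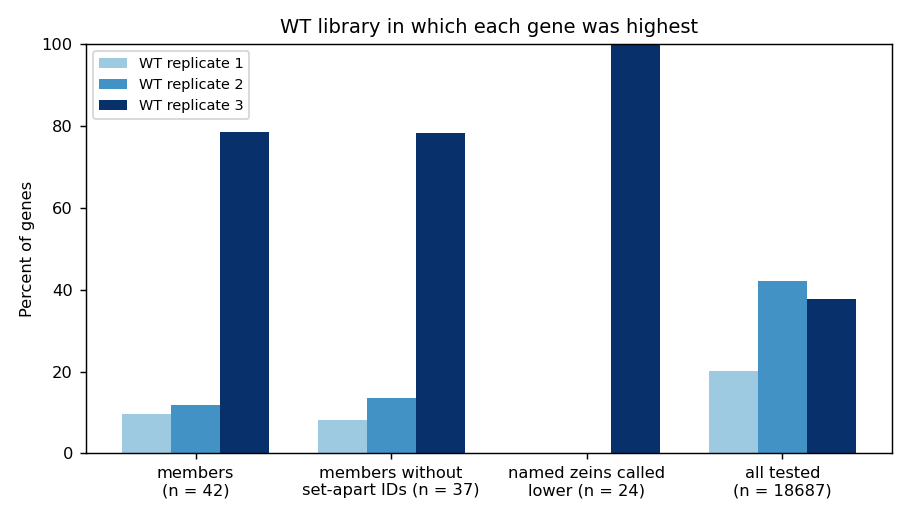
Percent of genes (bars) whose highest WT value was in WT replicate 1, 2 or 3, for the 42 genes, the 37 without the IDs set apart, the 24 named zeins called lower and all 18687 tested genes. Replicate 3 was highest in 78.6%, 78.4%, 100% and 37.7% of them.

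The exceptions were few. WT replicate 2 was highest in 5 genes: GRMZM2G037327, GRMZM2G052266, AC187262.4_FG007, GRMZM2G303121 and GRMZM5G848696. The clearest was AC187262.4_FG007, with 11.8, 24.7 and 5.94 RPKM in WT and 0.649, 0.199 and 0.190 RPKM in o2. Its WT order was the reverse of the common one. WT replicate 1 was highest in 4 genes: AF546188.1_FG003, AC177838.2_FG012, FIP1 and AC231180.2_FG006.

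Among the o2 libraries no such order was shared by the 42 genes as a whole. Replicate 3 was highest in 15 of the 42 genes (35.7%), close to the 35.4% of all tested genes. By WT level, it was highest in 5 of the 6 genes of 100 RPKM or more. The same held for 3 of the 11 genes of 10 to 100 RPKM, 7 of the 25 under 10 RPKM and 62.5% of the zeins called lower. In 6 genes, however, o2 replicate 3 was more than 2 times both other o2 libraries, which held for 1.15% of all tested genes and for 13 of the 24 zeins called lower. These were the 3 clone models, GRMZM2G002630, GRMZM2G037327 and GRMZM5G861965. The last had 8.87, 8.09 and 9.92 RPKM in WT and 0.353, 0.239 and 0.821 RPKM in o2. Another o2 library was more than 2 times both others in AC187262.4_FG007 (replicate 1), FIP1 and AC177838.2_FG012 (both replicate 2). The median o2 mean of the 42 genes was only 0.347 RPKM, and the part of such low levels in these jumps was not tested. Named zeins took 8.47% of the summed RPKM in o2 replicate 3, against 3.03% and 4.19% in o2 replicates 1 and 2.

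**Figure D4:**
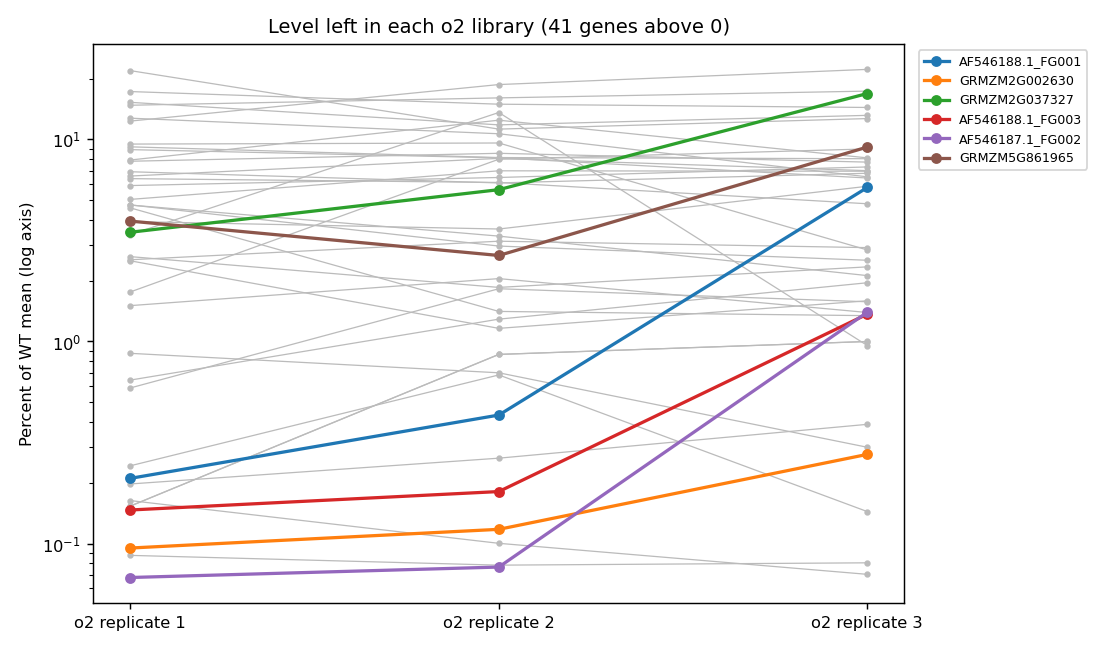
Level in each o2 library as a percent of the WT mean (log axis) for the 41 genes with any o2 signal; a line joins the values of 1 gene, and the replicates have no order. The 6 coloured genes are those with o2 replicate 3 more than 2 times both others, and the grey genes show no shared direction.

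The profiles of several genes ran close to those of genes left out by name. As the measure of likeness, the range over the 6 libraries of the log2 ratio between a pair of genes was used, where 0 means strictly parallel levels. The rule made all 42 genes high in WT and low in o2, and o2, rip1, GBF1 and bZip112 met it too. Closeness to any of these is therefore partly fixed by the choice. Among all tested genes only 4 kept within a range of 1.5 of the o2 gene: GRMZM2G036262 at 0.52, rip1 at 1.07, GRMZM2G012806 at 1.17 and GRMZM2G002630 at 1.25. For GRMZM2G036262, listed at 0 in o2, the value rests on the small constant of 0.01 RPKM added before taking logs. GRMZM2G002630 was still closer to rip1, with a range of 0.80.

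Other genes kept closer to the left-out bZIP factor genes, which had larger remnants than o2. GRMZM2G493549 had 4.47, 3.45 and 5.24 RPKM in WT and 0.304, 0.267 and 0.298 RPKM in o2, and its nearest tested gene was GBF1 (GRMZM2G011932) with a range of 0.34. GBF1 had 5.06, 3.48 and 6.27 RPKM in WT and 0.334, 0.343 and 0.385 RPKM in o2. Their levels were thus similar in all 6 libraries, with GBF1 the higher in each. GRMZM5G861965 was nearest to bZip112 (GRMZM2G103647), with a range of 0.70, and GRMZM2G469528 had bZip112 as its second nearest gene, with a range of 0.71.

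In 19 of the 42 genes the nearest of all tested genes was another of the 42, or in 17 without the pair of the same profile. The rule chose all 42 on these 6 libraries, so nothing is read from this count. GRMZM2G489466, with 13.8, 11.5 and 26.2 RPKM in WT and 0.868, 1.20 and 1.20 RPKM in o2, was nearest to GRMZM2G100355, with a range of 0.34, and next to GRMZM2G311756, with 0.46. GRMZM2G311684 was nearest to GRMZM2G311756, with a range of 0.29. These 4 genes kept 6.34% to 8.02% of WT and all were highest in WT replicate 3. GRMZM2G311756 was nearest to GRMZM2G047292, an ID paired with the same reference gene, with a range of 0.28. GRMZM2G047292 had 1.64, 1.49 and 2.80 RPKM in WT and 0.120, 0.137 and 0.137 RPKM in o2, and it stayed outside the 42 because 2 of its WT values were under the minimum.

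In the order of the reference genome, 4 of the 21 placed genes formed 2 pairs of direct neighbours, with 0 reference genes between. GRMZM2G012928 lay next to GRMZM2G012806, so that 2 of the most strongly reduced genes were neighbours. Both followed the common WT order, but the WT spread was 16.3-fold in the first and 2.83-fold in the second. FIP1 lay next to GRMZM2G046952, and these differed in which WT library was highest. Neighbouring or overlapping models can share reads, and the sources used here do not say whether counting used strand.

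**Figure D5:**
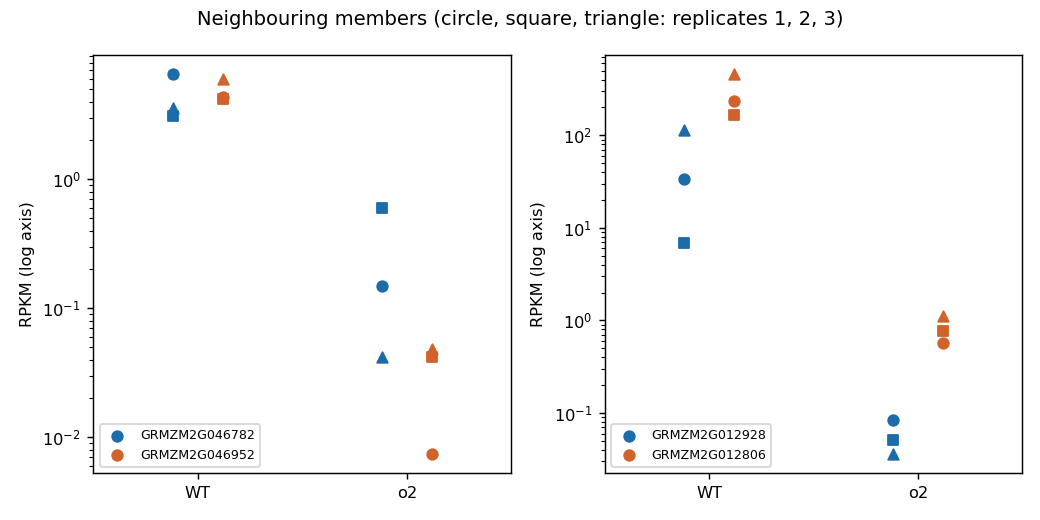
RPKM (log axis) of the 2 pairs of neighbouring genes in WT and o2, 1 panel per pair, with circles, squares and triangles for replicates 1, 2 and 3. GRMZM2G012928 ran from 6.94 to 113 RPKM in WT while its neighbour GRMZM2G012806 ran from 164 to 464, and the o2 values of both lay under 1.2 RPKM.

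Flanking genes were the nearest tested genes with a place in the reference on each side of a placed member. Tested IDs without a place were passed over, so closer tested genes may be missing. The flanking gene was next to the member in 6 of 42 cases, with a median of 4 and up to 37 reference genes between. Of the 38 distinct flanking genes, 1 (2.63%) was lower in o2, 0 were higher and 37 were not called in limma, where 2.07% of all tested genes were lower. Their median log2 fold change was 0.05, with a range from -2.08 to 0.91, and 5 (13.2%) were lower at an unadjusted p under 0.05, against 8.88% of all tested genes. The called one, GRMZM2G178546, lay 13 reference genes from GRMZM2G117956 and had 3.201, 4.85 and 5.74 RPKM in WT and 1.02, 1.004 and 0.932 RPKM in o2 (log2 fold change -2.08, limma adjusted p = 0.00714). Without o2 replicate 2 it was not called (adjusted p = 0.0542), and the count was then 0.

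Genes of known O2-related functions serve as a frame. The list genes o2, GBF1, lkrsdh1 and rip1 met the rule and were left out by name, so that none of the 42 is on these lists says nothing about the 42. Of 13 tested enzymes of amino acid and carbon-nitrogen metabolism, 5 were called lower and 0 higher, where 2.07% and 1.49% of all tested genes were. The median log2 fold change of the list was -1.37. The most reduced was lkrsdh1 (GRMZM2G181362), for the lysine-degrading enzyme, with 8.78, 6.42 and 20.1 RPKM in WT and 0.319, 0.286 and 0.104 RPKM in o2, a remnant of 2.01%. The glutamine synthetase gene gln4 (GRMZM5G872068) kept 15.6% of WT and its relative gln2 (GRMZM2G024104) kept 38.2%. The acetohydroxyacid synthase genes AHAS108 and AHAS109, for branched-chain amino acid synthesis, kept 29.2% and 38.4%. Only lkrsdh1 among these 5 was in the range of the 42 genes with a remnant under 10%. The 8 enzymes not called ranged from 28.3% of WT (gln5) to 119% (gln1), so not all of them were unchanged in level. Among them, Ppdk1 and PPDK2 kept 29.9% and 31.1% (limma adjusted p = 0.0501 and 0.0585). When 1 library was left out, gln2 was called in none of the 6 fits (limma adjusted p 0.0517 to 0.159), gln4 was lost in 4 of them (adjusted p up to 0.124), and AHAS108 and AHAS109 were each lost in 2 (adjusted p up to 0.0596 and 0.0699).

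Of 9 tested endosperm transcription factor IDs, 3 were called lower and 0 higher: o2, GBF1 at 7.17% of WT and the naked endosperm gene Nkd2 at 39.3%. The median log2 fold change of that list was 0.11. Nkd2 was lost when any 1 library other than WT replicate 3 was left out (limma adjusted p up to 0.166). Of 2 tested defence genes, rip1 (GRMZM2G063536), for a ribosome-inactivating protein, kept 0.124% of WT, a remnant close to that of GRMZM2G002630. The chitinase gene chiB was not called, with a log2 fold change of 0.37 (limma adjusted p = 0.802).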

How the data were processed

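RNA levels were deposited by the authors as RPKM, with 1 column per RNA library, and read totals as counts of reads in a table of mapping statistics. Per the submitters' processing notes, Trimmomatic, TopHat2 2.0.9, bedtools 2.17.0, edgeR 3.2.4 and B73 RefGen_v3 were used. The sources used here do not say how reads were assigned to genes. Since RPKM are not counts, no count test was run.

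From these values, log2(RPKM + 0.1) was fitted with limma 3.58.1 in R 4.3.3 (eBayes with trend, genotype only) over the 18687 genes that reached 1 RPKM in 3 or more of the 6 libraries. Calls have a Benjamini-Hochberg adjusted p under 0.05. The step was also run on simulated data with independent normal noise. Those data did not copy values of 0 or deviations shared between libraries, so nothing is read from that run here. Fold changes on this scale understate the change of low genes.

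Names and gene order came from a reference gene table of Zm-B73-REFERENCE-NAM-5.0, which paired 12658 of 28580 IDs. In the gene lists, 4 matches that only shared a symbol were removed. The lists of embryo-surrounding region and of maternal and green tissue markers each matched 1 ID, which was not tested. Likeness used log2(RPKM + 0.01).

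The 42 genes and the gene lists were chosen with earlier results of these data known. Genes named are the 12 of highest WT mean, the 10 of smallest remnant, those with a name and neighbouring members. Also named are 4 on each side of the ratio limit and called genes of the lists. Others, named for their profile, library order, clone or remnant, were chosen after their values were seen. The ChIP peak list was not used here.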

Additional observations from a re-analysis of the deposited data

How the results depend on the processing

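The rule gave 19 genes with a minimum of 5 RPKM, 23 with a ratio of 0.1, 111 with a ratio of 0.5 and 81 without the cap, and median remnants of 2.45%, 1.30%, 18.4% and 0.624%. Median-of-ratios scaling gave a median remnant of 4.40%. With 1 library left out of the rule it gave 44 to 68 genes, the most without WT replicate 2, and median remnants of 3.71% to 5.93%. Without GRMZM2G346884 and the duplicate the median remnant was 4.86%, and without the 3 clone models too it was 5.78% and the median log2 fold change -3.87. That median was -4.68 with a pseudocount of 0.01, -2.57 with 1, -4.26 after quantile normalization, and -4.43 to -4.01 with 1 library left out.

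A total without the 28 named zeins still held unnamed models that ran parallel to a zein, such as AF546188.1_FG005 and AF546188.1_FG007. Its scale factors were 1.15 to 3.90 in WT and 0.445 to 0.543 in o2. Scaling to it shifted all tested genes to a median log2 fold change of 2.08 and the 42 genes to -2.19. The scaling called 17999 genes, 104 of them lower. It left 36 of the 42 genes and 0 flanking genes called lower, with GRMZM2G349709, GRMZM2G365111, GRMZM2G180244, GRMZM5G848696, AC231180.2_FG006 and frk1 at -0.37 to -1.06 (adjusted p 0.0529 to 0.497), and turned AHAS108, AHAS109, gln2 and Nkd2 to 0.34, 0.73, 0.74 and 0.78, below the median gene. No filter on low values gave 1051 calls.

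With 1 library left out, 98 to 777 genes were called, with the 98 without o2 replicate 2, along with 35 to 41 of the 42 genes and 0 to 1 flanking genes. Of the 42, 34 were called in all 6 of these fits; AF546188.1_FG001 was called only without o2 replicate 3 and FIP1 in 3 fits, and GRMZM2G037327, scl1, GRMZM2G068202 and GRMZM2G012928 were lost without WT replicate 1 or o2 replicate 2, AC187262.4_FG007 and frk1 without o2 replicate 2. Over all alternatives, 25 of 588 pairs of gene and setting lost the call and 0 changed direction.

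The replicate block gave 340 calls, 41 of the 42 genes (GRMZM2G068202 was lost, adjusted p = 0.0515) and 3 amino acid enzyme genes. Deviations of same-numbered libraries correlated at -0.018, 0.061 and 0.32, so the numbers were not taken as pairs. Searches of promoters and proteins were not run.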
